A study of Mus musculus with 3 samples.

Results

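The interferon-induced chemokine genes Cxcl9, Cxcl10 and Cxcl11 were followed in stromal cells of the mouse lymph node, including follicular dendritic cells (FDCs). The members were chosen by gene symbol, 3 of the 51912 genes in the count tables, after an earlier clustering of these same counts had found Cxcl10 among the leading genes of a small group of stromal cells together with Isg15, Iigp1 and Ifit1. A link between Cxcl10 and those 3 genes is therefore a description here and not independent evidence. The other interferon genes below were tested in these same counts and are not independent evidence either. The mice were C57BL/6 with the genotype CXCL13-TdTomato+, a transgene that carries Cre and the red fluorescent protein TdTomato under Cxcl13, so that cells were sorted on a reporter of that chemokine gene. Live Podoplanin+ CD31- CD45- TdTomato+ cells were sorted by flow cytometry and sequenced with the 10x Genomics 3' kit. By the titles of the libraries, mice of the 2-IC group (2 libraries, called replicates 1 and 2) received a first antigen immune complex (IC) 7 days and a second one 24 hours before analysis. In the 1-IC group (1 library) mice received a single IC 24 hours before analysis. The short descriptions of the 2-IC libraries conflict with their shared title, which was followed here. All mice were immunized, lymph nodes of several mice were pooled per condition, and no library of unimmunized mice was analysed here. Where 3 values stand together, they belong to replicate 1 and replicate 2 of the 2-IC group and to the 1-IC library, in this order.

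Cxcl9, Cxcl10 and Cxcl11 belong to the chemokine family, whose small secreted proteins direct cell movement, and the CXCL9, CXCL10 and CXCL11 proteins bind the receptor CXCR3, which is found on activated T cells and natural killer cells. Interferon gamma induces all of them, and Cxcl9 depends on it more strictly than Cxcl10, which also answers to type I interferons and to NF-kB. In lymph nodes these chemokines are known for placing CXCR3-bearing T cells near stromal and antigen-presenting cells.

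The genes lie side by side on the minus strand of chromosome 5 (GRCm38, GENCODE and RefSeq annotation). Cxcl9 (ENSMUSG00000029417) spans chr5:92321347-92328079, Cxcl10 (ENSMUSG00000034855) spans chr5:92346638-92348889 and Cxcl11 (ENSMUSG00000060183) spans chr5:92359544-92365485. A gap of 18558 bases separates Cxcl9 from Cxcl10 and a gap of 10654 bases separates Cxcl10 from Cxcl11, so that the cluster covers 44139 bases. Cxcl9 and Cxcl10 are annotated as protein coding, while Cxcl11 is a polymorphic pseudogene in GENCODE and a transcribed pseudogene in RefSeq, so that in this reference genome it is not annotated as encoding a protein. Art3, a gene on the plus strand (chr5:92331827-92414628), overlaps Cxcl10 and Cxcl11. It held 13, 10 and 6 UMIs in the stromal cells described below, against 1730, 1277 and 551 UMIs of Cxcl10.

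The promoters of Cxcl9 and Cxcl10 are shown because the values below bear on how far both genes were found in the same cells. The 250 bases before the annotated start were taken from RefSeq (GRCm38.p6, minus strand, chr5:92328080-92328329 for Cxcl9 and chr5:92348890-92349139 for Cxcl10) and are written 5′ to 3′, and capitals mark the motif matches. The Cxcl11 promoter was not used here.
Cxcl9: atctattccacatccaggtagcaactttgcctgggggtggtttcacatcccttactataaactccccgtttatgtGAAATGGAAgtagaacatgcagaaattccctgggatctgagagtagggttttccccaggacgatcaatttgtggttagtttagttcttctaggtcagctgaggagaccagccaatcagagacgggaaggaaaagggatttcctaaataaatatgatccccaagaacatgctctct
Cxcl10: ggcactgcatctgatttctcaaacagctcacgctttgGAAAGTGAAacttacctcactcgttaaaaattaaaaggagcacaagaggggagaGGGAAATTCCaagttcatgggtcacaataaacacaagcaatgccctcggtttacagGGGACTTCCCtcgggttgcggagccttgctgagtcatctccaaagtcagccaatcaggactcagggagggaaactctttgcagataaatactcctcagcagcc

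The motifs searched on both strands were the core of the interferon-stimulated response element (ISRE, GAAANNGAA), the core of the gamma-activated site (GAS, TTCNNNGAA) and the NF-kB consensus of 10 bases. The Cxcl9 window held 1 ISRE core, 175 to 167 bases before the start. The Cxcl10 window held 1 ISRE core, 213 to 205 bases before the start, and matches to the NF-kB consensus 159 to 150 and 103 to 94 bases before it. The matches do not overlap, and neither window held the letters of the GAS core. Among 32851 promoters of the same length, 7.13% held the ISRE core, 7.02% the GAS core and 3.90% the NF-kB consensus, so that the letters alone are common.

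The 3 libraries held 5486 barcodes and 37162530 UMIs (unique molecular identifiers, which count captured RNA molecules). After limits of at least 200 genes and at most 10% mitochondrial UMIs, and after leaving out barcodes with any count of 13 genes of other cell types, 2243 barcodes were retained. A myeloid gate (UMIs of at least 2 of 9 myeloid genes) took 292 of them, and 1927 were called stromal cells by UMIs of at least 2 of 10 stromal genes, 1326, 336 and 265 by library. The median stromal cell held 4521, 14253 and 6289 UMIs. Of the barcodes, 76 occurred in both 2-IC libraries, with UMI totals at least 10-fold apart for 75 of them, and 2 in 2-IC replicate 1 and the 1-IC library, which put 52 of the 1927 stromal cells under a shared barcode. Results are given with them, and the numbers of genes called by chemokine content are also given without them below. Some single calls were lost without them. FDCs were gated by at least 1 UMI of Cr2, the complement receptor that holds ICs, which gave 119, 31 and 33 cells. Their other FDC genes were present at 158 ± 21.6 CPM for Fcer2a and 205 ± 48.7 CPM for Fcgr2b (SD, n = 3 libraries), against 1.96 ± 1.92 and 4.16 ± 2.88 CPM in other stroma, and Sox9 was at 266 ± 22.4 against 67.9 ± 44.1 CPM. CPM are the UMIs of a gene per 1000000 UMIs, both summed over the cells of a gate in a library, and the kit counts 3' ends, so that no gene length enters.

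Cxcl10 was the more widely held chemokine in the 2-IC libraries, while Cxcl9 and Cxcl10 were held by like shares of cells in the 1-IC library. A UMI of Cxcl10 was present in 27.7% of stromal cells in 2-IC replicate 1 (367 cells, exact binomial 95% interval 25.3 to 30.2%), 33.3% in 2-IC replicate 2 (112 cells, 28.3 to 38.7%) and 16.2% in the 1-IC library (43 cells, 12 to 21.2%). For Cxcl9 the shares were 9.73% (129 cells, 8.19 to 11.5%), 14.3% (48 cells, 10.7 to 18.5%) and 18.1% (48 cells, 13.7 to 23.3%) in the same order. Cxcl10 was thus the lowest and Cxcl9 the highest in the 1-IC library. Intervals cover counting error only, and with a single 1-IC library the groups cannot be tested against each other.

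Free RNA can place a UMI in a cell that does not make it, and B cell barcodes without stromal RNA served as the background. Cxcl9 was found in 0 of 102, 0 of 23 and 2 of 148 such barcodes, and a count of 0 allows a share of up to 2.94% and 13% in the 2-IC libraries. Cxcl10 was found in 3.92%, 8.70% and 1.35% of them. These barcodes held a median of 2917, 6147 and 3144 UMIs, fewer than stromal cells. With every cell thinned to 2000 UMIs (190, 40 and 37 shallower stromal cells left out), Cxcl10 was found in 18.2%, 18.6% and 11% of stromal cells and Cxcl9 in 5.63%, 6.08% and 13.2%, against at most 2.53% for either gene in thinned B cell barcodes. At that depth the stromal intervals lay above those of B cell barcodes for both genes in the 1-IC library and for Cxcl10 in 2-IC replicate 1. For Cxcl9 in 2-IC replicate 1 they overlapped, at 4.37 to 7.14% against an upper bound of 4.56%. In 2-IC replicate 2 neither gene was found in the 23 thinned B cell barcodes, with an exact upper bound of 14.8%. The Cxcl9 share of 6.08% could not be told from background there, and the Cxcl10 interval of 14.3 to 23.5% also overlapped that bound. Summed levels were clearer, since the interval of each chemokine over all stromal cells lay above that in B cell barcodes in each library. The Cxcl9 share remained the highest in the 1-IC library, while the 2-IC libraries became alike.

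The summed level of Cxcl10 was above that of Cxcl9 in the 2-IC libraries. Over all stromal cells Cxcl9 was at 122 CPM (exact Poisson 95% interval 114 to 130), 219 CPM (206 to 232) and 287 CPM (261 to 313). Cxcl10 was at 251 (239 to 263), 267 (252 to 282) and 329 CPM (302 to 358). The intervals of the 2 genes were apart in both 2-IC libraries and overlapped in the 1-IC library. Without the contaminant filter the order turned in 2-IC replicate 2 (Cxcl9 at 249.5 and Cxcl10 at 223 CPM) and in the 1-IC library (527 and 377 CPM). The 1-IC library was the highest for both genes and 2-IC replicate 1 the lowest. Cxcl9 differed 2.35-fold between the 1-IC library and 2-IC replicate 1, where 2.22% of the genes that reached 50 CPM were 2-fold or more apart, and 1.31-fold between the 1-IC library and 2-IC replicate 2, where 11.6% were. The 2-IC libraries themselves differed 1.80-fold in Cxcl9, with 5.22% of genes 2-fold or more apart. Cxcl10 differed 1.31-fold, 1.23-fold and 1.06-fold in the same pairs, under the 2-fold limit in each.

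These levels rested on few cells. A group of 6, 3 and 4 stromal cells held 50% of all Cxcl9 UMIs, and 34, 8 and 3 cells held 50% of the Cxcl10 UMIs. The highest single cell carried 227, 358 and 94 Cxcl9 UMIs and 70, 182 and 163 Cxcl10 UMIs, while 69 of 129, 17 of 48 and 12 of 48 cells with Cxcl9 carried a single UMI. Without the 10 cells with most UMIs of the gene, Cxcl9 was at 48.5, 33.4 and 81.8 CPM and Cxcl10 at 190, 123 and 65.0 CPM. The 1-IC library was then the lowest for Cxcl10, but the trim was unlike between libraries. Those 10 cells were taken from 367, 112 and 43 cells with Cxcl10 and held 25.4%, 55.8% and 81.3% of its UMIs. Cells with 10 UMIs or more numbered 44 for Cxcl9 and 84 for Cxcl10 over the 3 libraries, 7 of each in the FDC gate.

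**Figure D1:**
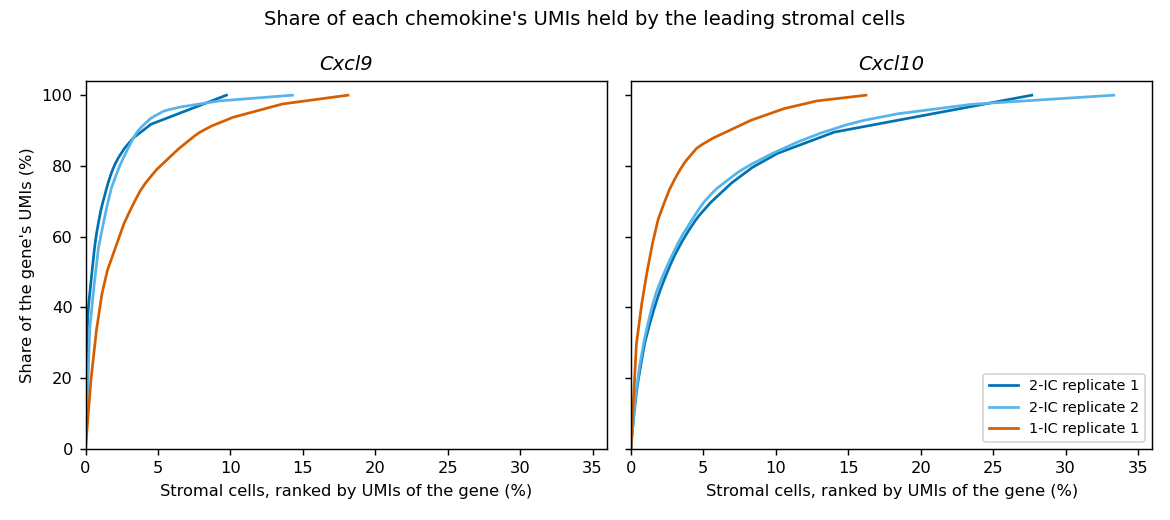
Share of all Cxcl9 (left) and Cxcl10 (right) UMIs of a library held by its stromal cells, ranked from the cell with most UMIs of the gene; both axes are percentages and each line is 1 library. The Cxcl9 lines rise steeply in all libraries and end at 9.73 to 18.1% of cells, while the Cxcl10 lines of the 2-IC libraries rise more slowly than that of the 1-IC library.

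Cxcl9 and Cxcl10 were found across the stromal gates, with exceptions at or near background level. The gates were applied in a fixed order after the FDC gate, for marginal reticular cells (MRC, Madcam1), T-B border reticular cells (TBRC, Fmod with Ccl21a), medullary reticular cells (MedRC, Inmt), interfollicular reticular cells (IFRC, Tnfsf11) and the ungated rest. Cxcl9 was at 355 ± 154 CPM in the TBRC gate, 318 ± 326 in the IFRC gate, 239 ± 151 in the FDC gate, 140 ± 113 in ungated stroma, 128 ± 68.7 in the MedRC gate and 61.7 ± 47.9 in the MRC gate (SD, n = 3 libraries). No neighbours in this order differed beyond their spread. Cxcl10 was at 583 ± 406 CPM in the IFRC gate, 282 ± 78.9 in the MedRC gate, 225 ± 244 in the TBRC gate, 182 ± 63.4 in the FDC gate, 129 ± 107 in the MRC gate and 128 ± 32.6 in ungated stroma, again with neighbours within their spread. The exceptions for Cxcl10 were the MRC gate of 2-IC replicate 2 and the TBRC gate of the 1-IC library, each with 1 Cxcl10 UMI. Their 7.41 and 6.01 CPM lay under the 24.1 and 9.23 CPM of B cell barcodes in those libraries. For Cxcl9, the 3 UMIs in the MRC gate of 2-IC replicate 2, 22.2 CPM (4.58 to 65.0), were within reach of the 18.1 CPM that a count of 0 allows in B cell barcodes there. In the MRC gate of 2-IC replicate 1 all 10 Cxcl9 UMIs lay in 1 of 37 cells. The large spreads followed single cells. The TBRC gate of 2-IC replicate 2 (65 cells) held the 3 cells with most Cxcl9 UMIs of that library (358, 127 and 110). Of these, the cell with 127 UMIs carried a barcode that also occurred in another library. The IFRC gate of the 1-IC library (25 cells) reached 1048 CPM of Cxcl10 through 1 cell with 163 of the gate's 168 UMIs. The myeloid gate, which was kept apart from stroma and which the CD45- sort was to remove, held Cxcl9 at 199 ± 23.9 and Cxcl10 at 127 ± 65.3 CPM. B cell barcodes lay at 4.31 ± 7.46 and 15.5 ± 7.70 CPM.

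**Figure D2:**
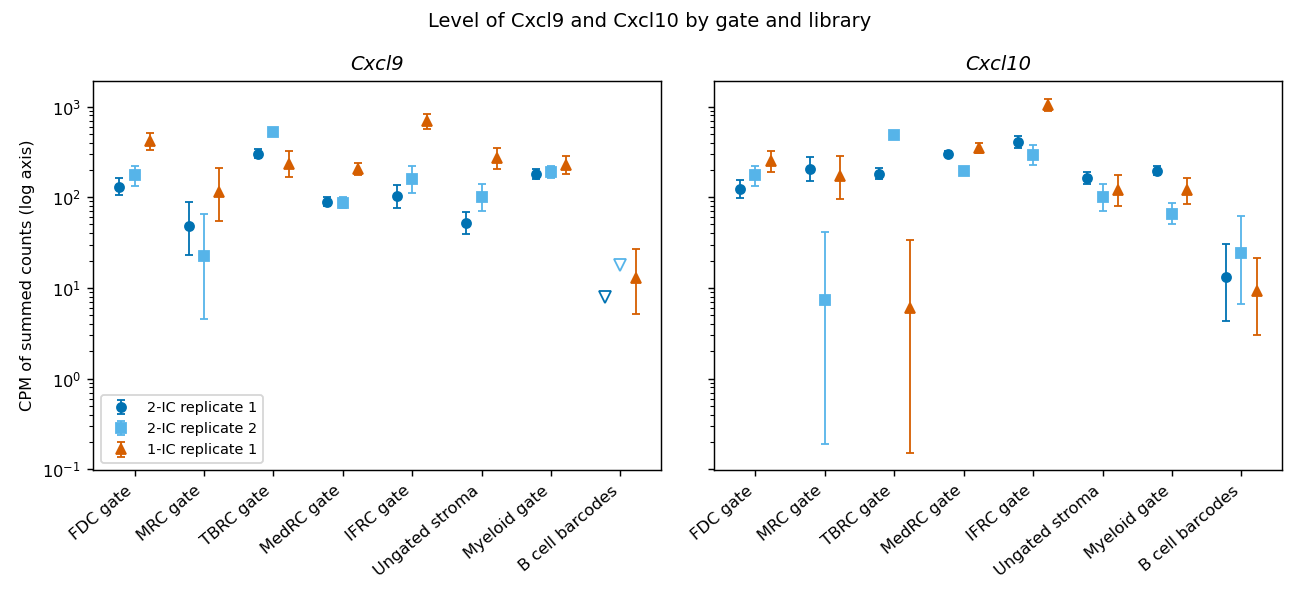
CPM of Cxcl9 (left) and Cxcl10 (right), on a log axis, of counts summed over each gate in each library, with exact Poisson 95% intervals for counting error; open triangles give the limit that a count of 0 UMIs allows. Some stromal gates differ between libraries beyond counting error, as the TBRC gate does for Cxcl10 (181, 487 and 6.01 CPM). The MRC gate of 2-IC replicate 2 and the TBRC gate of the 1-IC library hold 1 Cxcl10 UMI each, below the B cell barcodes of their library. B cell barcodes lie at 4.31 CPM of Cxcl9 and 15.5 CPM of Cxcl10 on average.

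FDC-gated cells held less Cxcl10 than other stroma, while Cxcl9 was not shown to differ. In the FDC gate Cxcl10 was at 123, 174 and 249 CPM, against 264, 275 and 341 CPM in other stroma, lower in each library. The difference was -0.79 ± 0.17 on the log2 scale (SE, edgeR quasi-likelihood test with the library as a block, adjusted p = 0.00544, n = 3 libraries), in a comparison where 17% of 8849 genes were called. The call rested on 2-IC replicate 1, since without it the difference was -0.59 with an adjusted p of 0.122 (adjusted p 4.49e-06 to 0.232 over all alternatives), and it was also lost without the library block (-0.75, adjusted p = 0.232) and with at least 2 Cr2 UMIs for the gate (-0.82, adjusted p = 0.123). It was larger without the contaminant filter, at -1.28, and at 2000 UMIs per cell, at -1.46 (edgeR adjusted p = 0.00151). At 2000 UMIs the FDC gate was taken from the thinned Cr2 counts (68, 21 and 20 cells). With the gate from full counts, a thinned FDC-gated cell held 0.25, 0.333 and 0.586 Cxcl10 UMIs on average. A thinned cell of other stroma held 0.55, 0.534 and 0.623, so that the 1-IC library was nearly alike. These FDC values rested on 11, 3 and 3 cells with a UMI. Of the FDC-gated cells 25 of 119, 6 of 31 and 3 of 33 held a Cxcl10 UMI, 21%, 19.4% and 9.09%, against 28.3%, 34.8% and 17.2% of other stromal cells. The lower CPM of the FDC gate in the 1-IC library leaned on single cells. There 1 cell held 163 of the 496 Cxcl10 UMIs of other stroma, and 1 held 44 of the 55 in the FDC gate. By gate, MedRC and IFRC cells were above FDC-gated cells in each library. The TBRC gate was above them only in the 2-IC libraries. Ungated stroma (164, 99.9 and 121 CPM) and the MRC gate (207, 7.41 and 172 CPM) were above them only in 2-IC replicate 1.

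Cxcl9 was at 131, 174 and 412 CPM in the FDC gate and at 121, 223 and 267 CPM in other stroma, higher in 2 libraries and lower in 2-IC replicate 2. The log2 difference was 0.10 ± 0.18 (edgeR, adjusted p = 0.787), from 13, 4 and 5 FDC-gated cells with a UMI. Its direction turned without the 1-IC library (-0.14) and without the contaminant filter (-0.68), and neither value passed the test. With each cell thinned to 2000 UMIs, the FDC gate taken from the thinned Cr2 counts (68, 21 and 20 cells), Cxcl9 was higher in FDC-gated cells by 1.35 on the log2 scale (edgeR, adjusted p = 0.000659), which no other alternative called (adjusted p 0.000659 to 0.979 over all of them). With the gate from full counts, a thinned FDC-gated cell held 0.448, 0.833 and 0.724 Cxcl9 UMIs on average and a thinned cell of other stroma 0.178, 0.338 and 0.417, with the FDC values resting on 6, 4 and 4 cells with a UMI. Cxcl11 did not pass the filter on low counts and was not tested.

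Cxcl9 and Cxcl10 shared cells in every library, each gene being found more often in cells that held the other. Of cells with Cxcl9, 41.1% also held Cxcl10 in replicate 1 of the 2-IC group (53 of 129, exact 95% interval 32.5 to 50.1%), 58.3% in replicate 2 (28 of 48, 43.2 to 72.4%) and 25% in the 1-IC library (12 of 48, 13.6 to 39.6%). Of cells without Cxcl9, 26.2% (23.8 to 28.8%), 29.2% (24 to 34.8%) and 14.3% (9.92 to 19.7%) held Cxcl10. The intervals were apart in the 2-IC libraries and overlapped in the 1-IC library. Seen from Cxcl10, the same cells gave the same direction by construction, as 14.4%, 25% and 27.9% of cells with it held Cxcl9, against 7.92%, 8.93% and 16.2% of cells without it.

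Depth moved with this sharing, as the median cell with both chemokines held 7325, 17936 and 9131 UMIs and the median cell with neither 4230, 13022 and 5698. With all cells thinned to 2000 UMIs, 37.5%, 50% and 30% of cells with Cxcl9 held Cxcl10, against 17.1%, 16.5% and 8.08% of cells without it, and the intervals were then apart in all 3 libraries. In the FDC gate 11 of 183 cells held both, out of 22 with Cxcl9 and 34 with Cxcl10, and in the MedRC gate 45 of 934 cells did.

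**Figure D3:**
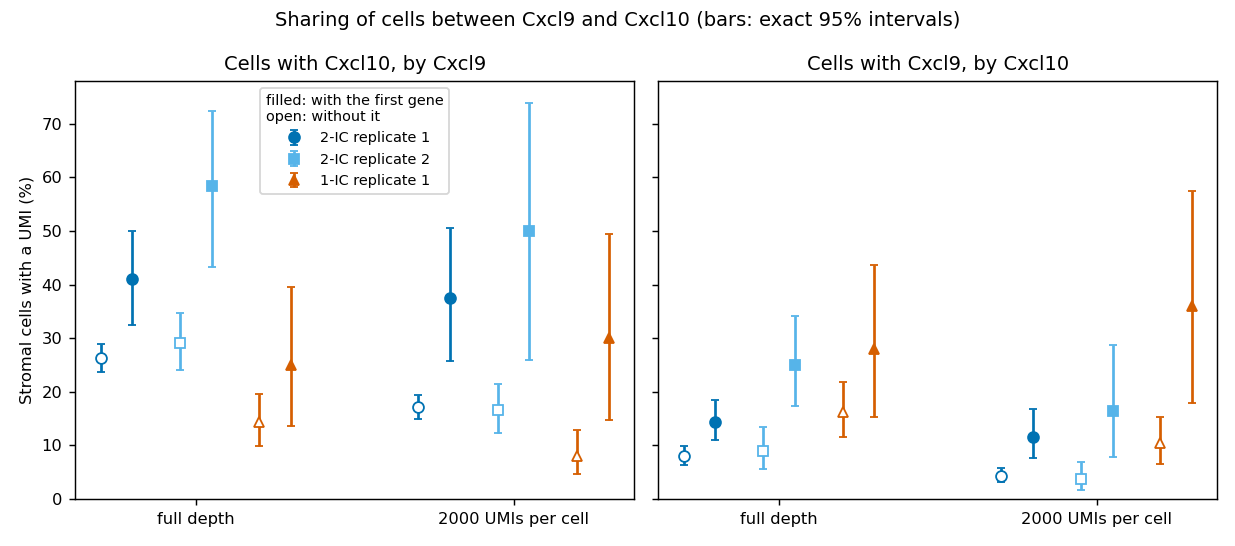
Percentage of stromal cells with a UMI of Cxcl10, by whether the cell held Cxcl9 (left), and of Cxcl9, by whether it held Cxcl10 (right), at full depth and thinned to 2000 UMIs per cell; filled points are cells with the other gene, open points cells without it, and bars are exact binomial 95% intervals per library. Filled points lie above open points in each of the 3 libraries, and their intervals are apart throughout at 2000 UMIs.

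In 2-IC replicate 2 the shared cells carried most of the Cxcl9. The 53, 28 and 12 cells with both genes held 65.1%, 88.9% and 43.8% of the Cxcl9 UMIs and 32.8%, 58.0% and 46.3% of the Cxcl10 UMIs of the stromal cells. In 2-IC replicate 1 this leaned on the 2 leading Cxcl9 cells, which held 227 and 86 Cxcl9 UMIs beside only 1 and 2 Cxcl10 UMIs. Without the 2 leading Cxcl9 cells of each library the shares of Cxcl9 were 44.4%, 79.4% and 44.8%. The median Cxcl9 count of all cells with both was 2, 3 and 9 UMIs, against 1, 1.5 and 2 in cells with Cxcl9 alone, and their median Cxcl10 count was 4, 7 and 11.5, against 1, 3 and 3. High levels of 1 gene nevertheless occurred without the other. The leading Cxcl9 cell of the 1-IC library held 94 UMIs and no Cxcl10, and its leading Cxcl10 cell held 163 UMIs and no Cxcl9. Of the 44 cells with at least 10 Cxcl9 UMIs, 25 held Cxcl10, and of the 84 with at least 10 Cxcl10 UMIs, 34 held Cxcl9.

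Cxcl11 was near the limit of detection. It was found in 1, 1 and 2 stromal cells, with 6 UMIs in all, and all 4 cells held Cxcl10. Of all stromal cells, 27.7%, 33.3% and 16.2% held Cxcl10. The 4 cells held 16223, 29836, 9671 and 5995 UMIs, where the median stromal cell held 4521, 14253 and 6289 by library. Outside the stromal cells, a barcode left out by the contaminant filter in the 1-IC library held Cxcl11 without Cxcl10. The TBRC-gated cell of 2-IC replicate 2 held 2 Cxcl11 UMIs beside 115 of Cxcl10 and 127 of Cxcl9. Its barcode also occurred in another library, and without shared barcodes no stromal cell of 2-IC replicate 2 held Cxcl11. The FDC-gated cell of 2-IC replicate 1 held 1 Cxcl11, 1 Cxcl10 and 3 Cxcl9 UMIs. In the 1-IC library an MRC-gated cell held 2 Cxcl11, 15 Cxcl10 and 1 Cxcl9 UMIs, and a MedRC-gated cell held 1 Cxcl11 and 3 Cxcl10 UMIs and no Cxcl9. With so few UMIs, nothing can be said of its level in any gate.

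The 5 interferon genes looked up and the receptor gene were absent from the stromal counts or nearly so. Barcodes with T cell RNA had been left out of the stromal cells beforehand, which limits what the stromal counts of Ifng and Cxcr3 can show. Ifng, the gene of interferon gamma, and Ifnb1, Ifna4, Ifna2 and Ifnl3, genes of type I and type III interferons, had 0 UMIs in the 1927 stromal cells. Among all 4513 barcodes past the gene and mitochondrial limits, Ifng had 22 UMIs in 11 barcodes, and 16 of these UMIs lay in 6 of the 334 barcodes with T cell RNA (Trac or Cd3d). The other interferon genes looked up had 0 UMIs there too. Cxcr3 had 1 UMI in stromal cells and 93 UMIs in 55 of the 4513 barcodes. Dpp4, the peptidase that trims these chemokines, had 5 UMIs in stromal cells and 309 in 220 of those barcodes.

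Genes that went with the chemokines were sought by summing, in each library, the stromal cells with at least 1 UMI of the 3 genes (443, 132 and 79 cells) and those with none (883, 204 and 186 cells), with the 3 genes themselves taken out. Genes called higher in the cells with the chemokines included 11 of 17 interferon-gamma-leaning, 11 of 25 antiviral, 7 of 10 class I presentation and 6 of 10 inflammatory genes tested, and those called lower included Cxcl13, Cr2, Clu, Fcer2a and Madcam1. Of 10965 genes tested, 151 (1.38%) were higher and 87 (0.793%) lower at an adjusted p under 0.05 (edgeR quasi-likelihood test, library as a block, n = 3 libraries). No gene was called without the block by edgeR, where 212 genes had an unadjusted p under 0.05, and DESeq2 with the block called 41 higher and 15 lower. The cells with the chemokines were deeper, with medians of 5504, 16075 and 7102 UMIs against 4230, 13022 and 5698. Thinned to 2000 UMIs, 24 genes were called higher and 5 lower of 5450 tested, and 21 and 5 of them were among the genes called at full depth. The part of depth in the other calls was not tested. Without the barcodes shared between libraries 93 were called higher and 59 lower, 91 and 57 of them also called with those barcodes. Without TMM scaling the split was 89 higher to 87 lower, and without the contaminant filter it was 139 to 296. The numbers were 56 and 26 without 2-IC replicate 1, 85 and 64 without 2-IC replicate 2, and 79 and 33 without the 1-IC library.

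RNA of other cells was already limited by the filter on 13 contaminant genes and by the myeloid gate, and the values describe what was left. The 9 myeloid gate genes summed to 90.5, 37.5 and 175 CPM in cells with the chemokines and to 137, 60.3 and 175 CPM in cells without, lower in cells with the chemokines in both 2-IC libraries and alike in the 1-IC library. Of these genes only Lyz2 and Aif1 passed the filter on low counts, and Aif1 was lower (log2 difference -0.54, edgeR adjusted p = 0.0161). The Aif1 call was lost without the shared barcodes. The 5 endothelial genes had 13, 1 and 1 UMIs in cells with the chemokines and 18, 4 and 5 in cells without.

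Most tested GTPases and regulators that lean on interferon gamma were higher. Of 21 genes in this list 17 were tested, 11 were higher and none lower, and the median log2 difference was 1.42, against 0.0084 over all genes tested. The median was 0.74 without the 1-IC library and 0.77 without the contaminant filter. The count includes Iigp1, which had led to the choice of the members, and without it 10 of 16 were higher, with a median of 1.16. Leaving it out does not make the other genes independent of that choice, since they come from the same counts. Iigp1, a GTPase that acts on the vacuoles of intracellular parasites, was the highest of them in stroma and was at 191, 356 and 475 CPM in cells with the chemokines, against 81.1, 110 and 123 CPM in cells without. Its log2 difference was 1.64 ± 0.10, a description that carries no test. Igtp, of the same GTPase family, was at 34.5, 61.4 and 70.2 against 15.5, 11.3 and 18.1 CPM (log2 difference 1.82 ± 0.20, edgeR adjusted p = 2.59e-07). Gbp2, a guanylate-binding protein of cell-autonomous defence, was at 47.4, 76.3 and 93.0 against 24.2, 26.1 and 24.5 CPM (1.42 ± 0.15, edgeR adjusted p = 2.55e-07). Ifi47 was higher by 0.74, while Irf8, a transcription factor of myeloid and B cells, was at 118, 162 and 186 against 154, 147 and 131 CPM and did not pass the test (edgeR adjusted p = 0.940). Thinned to 2000 UMIs, 4 of 9 tested genes of the list were higher, and leaving out 1 library at a time left 8 to 10 of 17. The sequences of Gbp, Tgtp and Serpina genes are close to those of their family members, and counts may be split between them.

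Of 29 antiviral genes answering to interferons, 25 were tested, 11 were higher and none lower, with a median of 0.80. Without Isg15 and Ifit1, which had also led to the choice of the members, 9 of 23 were higher and the median was 0.76. The remaining genes come from the same counts and are not independent of that choice. Ifi27l2a was at 479, 41.6 and 770 CPM against 213, 21.0 and 311 CPM, and Bst2, which tethers budding virus, at 253, 122 and 510 against 182, 112 and 303 CPM, both higher in the cells with chemokines of each library. Isg15, a ubiquitin-like modifier, was at 59.1, 31.6 and 267 against 28.4, 17.9 and 81.5 CPM (log2 difference 1.30 ± 0.14, given as a description). The largest log2 differences among them, 2.55 for Ifit1 and 2.24 for Ifit3b, did not hold in every library, as Ifit1 was at 26.5, 2.26 and 64.9 against 4.70, 2.33 and 5.43 CPM. Lgals3bp, also among the highest of the list in stroma, was not called (0.31, edgeR adjusted p = 0.107). The list leaned on the 1-IC library, without which 3 of 24 tested genes were called, against 5 of 22 without 2-IC replicate 1 and 12 of 25 without 2-IC replicate 2. Thinned to 2000 UMIs, 2 of 13 tested genes of the list were higher. DESeq2 called 5 of 25 higher, and 6 of 29 were higher without the contaminant filter.

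No receptor chain of the interferons passed the test. Of 11 genes of receptors and signalling, 2 were higher. Of these, Irf1, an interferon-induced transcription factor, was at 86.4, 69.1 and 123 against 54.5, 58.4 and 57.1 CPM (log2 difference 0.65 ± 0.12, edgeR adjusted p = 0.0016). The receptor chains Ifngr1 and Ifnar2 and the kinase Jak1, the highest of the list in stroma, gave log2 differences of -0.07, 0.07 and 0.05, none past the test.

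Differences of class I presentation genes were smaller. All 10 were tested, 7 were higher and the median was 0.35. B2m, the light chain of class I molecules, was at 3707, 2634 and 3199 CPM against 3143, 2351 and 2348 CPM (log2 difference 0.33 ± 0.05, edgeR adjusted p = 0.000137), and the heavy chains H2-D1 and H2-K1 were higher by 0.21 and 0.22. Leaving out 1 library left 1 or 2 of the 10 genes called, and 2 were called without TMM scaling. None were called by edgeR at 2000 UMIs, by DESeq2 or without the contaminant filter. The calls of this list thus rest on full depth, on edgeR with TMM scaling, on the contaminant filter and on all libraries together.

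Some inflammatory genes tied to NF-kB were higher. Of 11 genes 10 were tested, 6 were higher, and the median was 0.62. Ccl2 and Ccl7, which draw monocytes, were at 664, 904 and 235 against 185, 435 and 58.9 CPM (log2 difference 1.57 ± 0.11, edgeR adjusted p = 5.9e-12) and at 441, 453 and 367 against 230, 162 and 89.7 CPM (1.40 ± 0.11, edgeR adjusted p = 1.7e-10). Cxcl1 and Cxcl2, which draw neutrophils, passed the test (0.77 and 1.71) but were higher only in the 2-IC libraries. Cxcl1 was at 1761, 1598 and 719 against 1054, 670 and 736 CPM, and Cxcl2 at 168, 150 and 7.02 against 52.2, 31.1 and 37.1 CPM. In the 1-IC library Cxcl1 was thus nearly alike and Cxcl2 was lower, at a low level. A difference between the groups was not tested with 1 such library. Nfkbia, the inhibitor that NF-kB induces, was higher by 0.44 and Vcam1, an adhesion molecule, did not pass the test (0.12, edgeR adjusted p = 0.446).

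**Figure D4:**
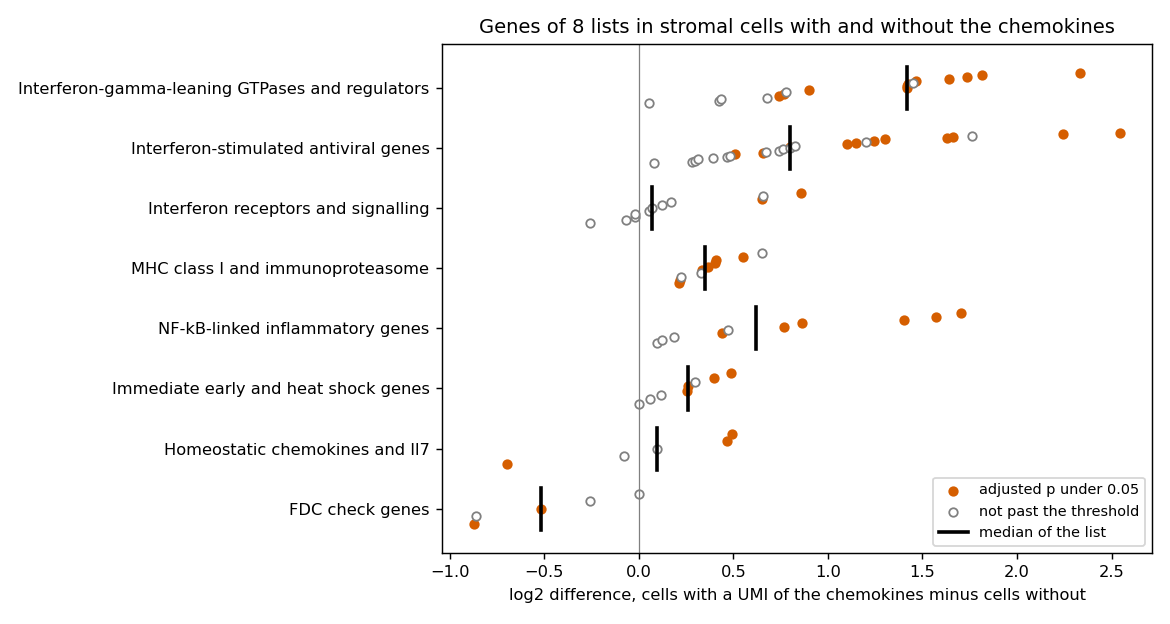
log2 difference between stromal cells with and without a UMI of the 3 chemokines for the tested genes of 8 lists, 1 point per gene, from edgeR with the library as a block; filled points have an adjusted p under 0.05 and the vertical bars are list medians. The filled points include Iigp1, Isg15 and Ifit1, which had led to the choice of the members and are a description only. The other interferon genes come from the same counts and are not independent evidence. The median of the interferon-gamma-leaning list lies highest at 1.42, falling to 0.74 without the 1-IC library, and that of the FDC check genes lowest at -0.52, against -0.086 at 2000 UMIs per cell.

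Some follicular genes were lower. Cxcl13, the B cell chemokine whose promoter marks these cells, was at 5800, 2990 and 12428 CPM in cells with the chemokines against 9553, 5965 and 18103 CPM in cells without, lower in each library (log2 difference -0.70 ± 0.05, edgeR adjusted p = 6.2e-11). Cr2 was at 47.4, 84.0 and 28.1 against 131, 139 and 162 CPM (-1.21 ± 0.15, edgeR adjusted p = 1.4e-06), Clu, a secreted chaperone of FDCs, was lower by 0.52, and of the 5 FDC check genes only Clu and Fcer2a (-0.87, edgeR adjusted p = 0.0362) were called, with a list median of -0.52. Madcam1 was at 13.6, 4.97 and 71.9 against 52.9, 31.5 and 113 CPM (-1.56 ± 0.21, edgeR adjusted p = 8.84e-06). Thinned to 2000 UMIs, Cr2 (-0.53, edgeR adjusted p = 0.505), Madcam1 (0.0051) and Fcer2a (0.35) were no longer called, while Cxcl13 and Clu were, and the FDC check median was -0.086. Without the contaminant filter Cr2 (-0.83), Madcam1 (-0.71) and Clu (-0.34) were not called. The T zone chemokine Ccl19 was higher by 0.49 and Ccl21a by 0.47, the latter not in the 1-IC library (6425 against 6550 CPM) and not at 2000 UMIs (-0.00941), and Cxcl12 and Il7 were not called. The Ccl21a call was also lost without the shared barcodes. Both Ccl19 and Ccl21a have near-identical copies in the genome. Inmt, of medullary cells, was at 505, 571 and 358 against 561, 683 and 337 CPM. By gate, 54%, 49.2% and 51.9% of cells with the chemokines were in the MedRC gate, against 46.4%, 49% and 42.5% of cells without, and 7.22%, 6.06% and 6.33% were in the FDC gate, against 9.85%, 11.3% and 15.1%.

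Among 8 immediate early and heat shock genes, which cell dissociation is known to induce, 4 were higher, with a median of 0.26. None were called by edgeR at 2000 UMIs or by DESeq2, and 1 or 2 with 1 library left out. Atf3 was at 967, 687 and 1021 against 872, 423 and 898 CPM and Dnajb1 was higher by 0.49. Fos and Jun were not called (0.12 and 0.06), and Egr1 was higher by 0.26, though not in the 1-IC library. These genes moved with the chemokines in part, and their part in the other differences was not tested. Of the 10 stromal genes of the gate, Sparc was higher by 0.23 and Cxcl13 lower.

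The 10 largest rises seen in all libraries were those of Serpina3f, Sct, Gbp4, Gm12250, Igtp, Gbp6, Ifit3, Mpeg1, Iigp1 and Irf7. Serpina3f, a serine protease inhibitor, was at 9.09, 94.4 and 38.6 CPM in cells with the chemokines against 2.59, 6.23 and 0.906 CPM (log2 difference 3.53 ± 0.30, edgeR adjusted p = 1.61e-09). Gbp4 was at 5.68, 16.3 and 35.1 against 1.88, 4.28 and 1.81 CPM. Sct, the gene of the hormone secretin, was at 4.55, 0.452 and 66.6 against 0.705, 0 and 4.53 CPM and fell under the filter when any library was left out. Its direction in 2-IC replicate 2 rested on 1 UMI. Mpeg1, a pore-forming protein of macrophages, was at 8.72, 5.87 and 15.8 against 4.47, 0.778 and 2.72 CPM, under 20 CPM throughout. The 5 largest falls were those of Car3, a carbonic anhydrase, at 4.93, 1.36 and 0 against 19.7, 27.2 and 27.2 CPM, whose log2 difference of -2.93 turned to 0.75 without the contaminant filter, and of Tmem37, Aplp1, Snx32 and Serpina1e. Of these 15 genes 6 stayed called whichever library was left out, namely Serpina3f, Gbp4, Igtp, Iigp1, Car3 and Serpina1e. Iigp1 had led to the choice of the members, so that its place among them is a description and not independent evidence. The same limit applies to the other interferon genes named, which come from the same counts.

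Cells with 1 chemokine and not the other were then set apart, a comparison chosen after the numbers of such cells were seen. There were 76, 20 and 36 stromal cells with Cxcl9 alone and 314, 84 and 31 with Cxcl10 alone. Alone means here that no UMI of the other gene was found. The median cell with Cxcl9 alone held 1, 1.5 and 2 Cxcl9 UMIs, and that with Cxcl10 alone 1, 3 and 3 Cxcl10 UMIs. At equal depth the Cxcl9 share overlapped background in both 2-IC libraries, as described above. Whether such cells lacked the other gene or it was missed was not tested, and no higher UMI limit was tried. The MedRC gate took 51.3%, 45% and 36.1% of cells with Cxcl9 alone and 55.4%, 51.2% and 71.0% of cells with Cxcl10 alone. The part of the gates in the differences between these cells was not tested. The summed interferon-gamma-leaning genes were at 871, 751 and 1487 CPM in cells with Cxcl9 alone, at 675, 603 and 1166 CPM in cells with Cxcl10 alone, at 1205, 2687 and 3053 CPM in cells with both and at 553, 541 and 608 CPM in cells with neither. The order neither, Cxcl10 alone, Cxcl9 alone and both held in each library. This list includes Iigp1, and the antiviral list includes Isg15 and Ifit1, genes that had led to the choice of the members. The sums were not made without them and are a description, not independent evidence. The antiviral list was at 1997, 1198 and 5857 CPM in cells with both and at 1059, 669 and 1432 CPM in cells with neither. In 2-IC replicate 2 its values for Cxcl9 alone and Cxcl10 alone, 655 and 618 CPM, did not exceed that of cells with neither. The immediate early and heat shock genes were highest in cells with Cxcl10 alone in each library, at 24136, 21415 and 24834 CPM, against 16605, 18513 and 17377 CPM in cells with Cxcl9 alone.

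**Figure D5:**
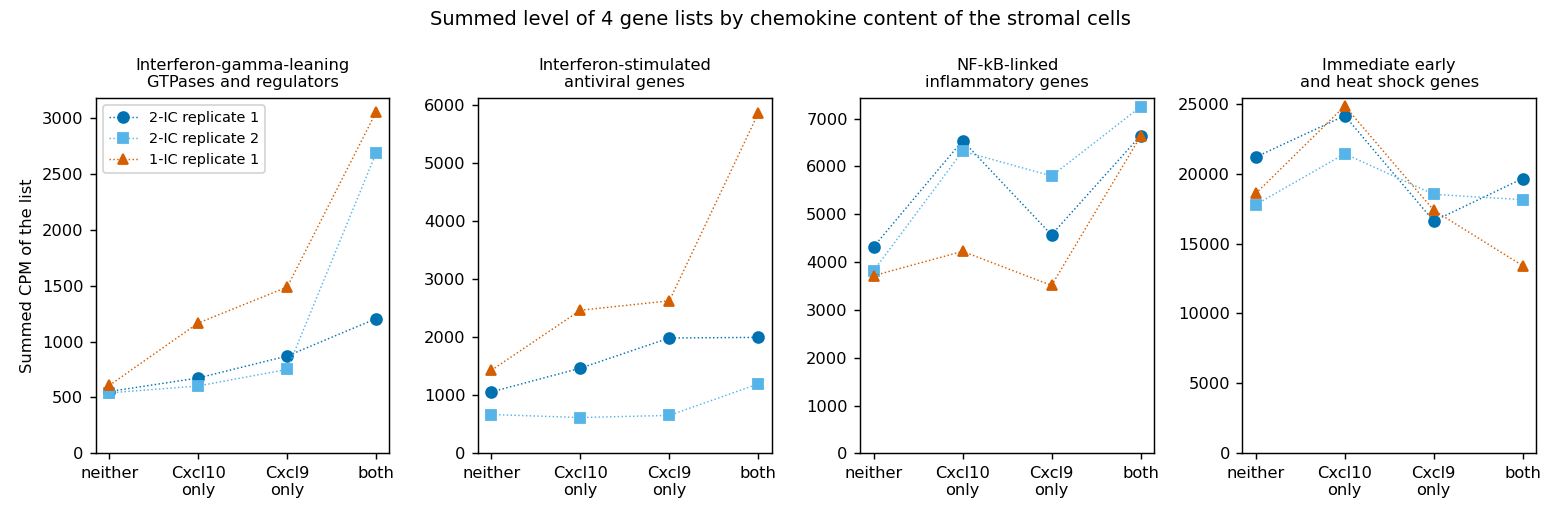
Summed CPM of 4 gene lists in stromal cells with neither chemokine, with Cxcl10 alone, with Cxcl9 alone and with both, 1 point per library, joined by dotted lines to guide the eye. The interferon-gamma-leaning list, which includes Iigp1, reaches 1205, 2687 and 3053 CPM in cells with both chemokines, and the immediate early and heat shock list is highest in cells with Cxcl10 alone. The antiviral list includes Isg15 and Ifit1, which like Iigp1 had led to the choice of the members. Alone means that no UMI of the other gene was found, and missed detection was not tested.

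Between cells with Cxcl9 alone and with Cxcl10 alone 5 of 5159 genes (0.0969%) passed the test (edgeR, library as a block, n = 3 libraries). Gbp2 was higher with Cxcl9 alone, at 88.8, 55.1 and 137 against 34.4, 21.3 and 28.6 CPM (log2 difference 1.50 ± 0.25, edgeR adjusted p = 0.0427). It was not called by DESeq2, without TMM scaling or at 2000 UMIs, and stayed called without the shared barcodes. Ccl2, Ifrd1, Clec3b and Atf3 were higher with Cxcl10 alone, Ccl2 at 670, 852 and 286 against 248, 386 and 145 CPM (log2 difference -1.25 ± 0.15, edgeR adjusted p = 0.00561). All 8 immediate early and heat shock genes were lower with Cxcl9 alone in all libraries, with a median of -0.56 and Atf3 alone called. Over all genes tested, 674 of 5159 were lower in all libraries, and the median was -0.0022. The number of genes called was unstable, 0 without 2-IC replicate 1, where 259 genes had an unadjusted p under 0.05, 79 without 2-IC replicate 2 and 43 without the 1-IC library, and DESeq2 called 9. Without the contaminant filter 7 were called, and 0 of them were among these 5.

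The genes most like each chemokine across single stromal cells were interferon-induced as well. Among 10384 genes found in at least 2% of stromal cells of every library, those with the highest mean Pearson correlation with Cxcl9 over the 3 libraries were Fam26f (0.37), Igtp (0.35), Gbp5 (0.33) and Gbp2 (0.33), and those with Cxcl10 were Iigp1 (0.30), Gbp5 (0.29), Irgm1 (0.28), Cxcl9 (0.26) and Igtp (0.25). Correlations were weakest in 2-IC replicate 1, as shown by the values of Fam26f with Cxcl9 (0.13, 0.52 and 0.46). Cxcl10 ranked 7 of 10384 for Cxcl9, at 0.14, 0.41 and 0.23. These values are across cells that share a library and its depth and describe these cells only. Iigp1 had been grouped with Cxcl10 in the earlier clustering of the same counts, so that these correlations are not independent evidence.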

How the data were processed

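The 3 libraries of sorted lymph node stromal cells were analyzed from the raw UMI counts per gene and barcode that the authors deposited without normalization. Counting by the authors used GRCm38 with Ensembl release 89 and Cell Ranger, for which the file headers give 5.0.0 and the methods give version 3. The labels' short descriptions of the 2-IC libraries conflict, and libraries were grouped by title. Members and gene lists were chosen with earlier results of these data known. Rows with the same symbol were summed. Barcodes with fewer than 200 genes, over 10% mitochondrial UMIs or a count of 13 contaminant genes were left out, and no doublet caller was run. Sums of counts per library and cell group were tested with edgeR 4.0.16 (R 4.3.3, TMM, filterByExpr, quasi-likelihood test, Benjamini-Hochberg adjustment over all genes), with the library as a block, which pairs the cell groups taken from 1 suspension. These sums are the replicates (n = 3), and cells are not. The study's methods give 3 independent experiments with lymph nodes of several mice pooled, and do not say which library came from which experiment. DESeq2 1.42.0 was an alternative. CPM have exact Poisson and shares exact binomial 95% intervals for counting error, and a count of 0 was taken to allow 3 counts. Thinning drew 2000 UMIs per cell without replacement. The fits were tested on simulated counts. Named genes are the 10 largest rises and 5 largest falls called with the same direction in all 3 libraries, the 3 highest members of each list, list members past the threshold, and the 5 genes most like Cxcl9 and Cxcl10 (mean of the within-library Pearson correlation of log(1 + counts per 10000)). Promoter windows and annotation came from RefSeq (GRCm38.p6) and GENCODE. A gene that these rules also name is not reported here.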

Additional observations from a re-analysis of the deposited data

Results flagged for a closer look

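The 13 contaminant genes remove many barcodes, and those left out, other than B cell barcodes, held both chemokines above the level in B cell barcodes of the same library. Cxcl9 was at 147 CPM in 2-IC replicate 1, 231 CPM in 2-IC replicate 2 and 889 CPM in the 1-IC library over 1505, 342 and 150 such barcodes, and Cxcl10 was at 277, 131 and 311 CPM. The lower end of each Poisson interval was above the upper end in B cell barcodes, and this comparison carries no test across libraries. Split by their genes, those with at least 2 myeloid genes held Cxcl9 at 241, 158 and 875 CPM. Those with at least 2 stromal and under 2 myeloid genes held it at 107, 290 and 1172 CPM, and those with under 2 of either at 0, 7.44 and 0 CPM. Of the 15 Cxcl11 UMIs in these barcodes, 11 lay in 2 barcodes of 2-IC replicate 1 that also held 134 and 150 UMIs of Cxcl10. A barcode of the 1-IC library held 2 Cxcl11 and 245 Cxcl9 UMIs and no Cxcl10.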

How the results depend on the processing

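Numbers in a series are in the order 2-IC replicate 1, 2-IC replicate 2 and 1-IC library. Shared-barcode and mitochondrial alternatives of the fits, list counts without Isg15, Iigp1 and Ifit1, shares without the 2 leading cells, and all alternatives of Cxcl9 alone against Cxcl10 alone, were chosen after seeing the data. The log2 difference of Cxcl9 between the FDC gate and other stroma turned to -0.00892 with no filter on low counts, -0.68 without the contaminant filter and -0.0707 with the myeloid gate kept, ranged from -0.14 to 0.32 with 1 library left out, and was called at 2000 UMIs (1.35). For Cxcl10 it was not called with no replicate block (-0.75) or with 2 Cr2 UMIs (-0.82), was -1.46 at 2000 UMIs and -1.28 without the contaminant filter, and ranged from -0.92 to -0.59 with 1 library left out. Genes higher and lower in cells with the chemokines numbered 0 and 0 with no replicate block (the library pairs the sums), 89 and 87 without TMM, 41 and 15 with DESeq2, 93 and 59 without shared barcodes, 97 and 44 at a mitochondrial limit of 5%, 139 and 296 without the contaminant filter, 133 and 47 with 2 UMIs of the chemokines and 24 and 5 at 2000 UMIs, where fewer genes were tested. They ranged from 56 to 85 and from 26 to 64 with 1 library left out. Between Cxcl9 alone and Cxcl10 alone, 0 genes were called with no replicate block (87 at an unadjusted p under 0.05), 1 without TMM, 9 with DESeq2, 78 with no filter on low counts, 111 with the myeloid gate kept, 8 with no stromal genes required, 7 without the contaminant filter (0 of them among the 5), 29 without shared barcodes and 26 at 2000 UMIs, and 0 to 79 with 1 library left out. The causes were not tested. Shares with Cxcl9 were 5.63%, 6.08% and 13.2% at 2000 UMIs and 4.52%, 9.23% and 13.6% with at least 2 UMIs, and those with Cxcl10 were 18.2%, 18.6% and 11% at 2000 UMIs and 14%, 23.5% (the first 2 libraries) with at least 2 UMIs. The share with Cxcl9 among Cxcl10 cells of 2-IC replicate 2 was 16.4% at 2000 UMIs. Without the contaminant filter Cxcl9 was at 249.5 and 527 CPM and Cxcl10 at 223 and 377 CPM in the second 2-IC and the 1-IC library, and without the 10 leading cells Cxcl9 was at 48.5, 33.4 and 81.8 CPM and Cxcl10 at 190, 123 and 65.0 CPM. Of the 59 named or list genes called between cells with and without the chemokines, 26 were called by DESeq2 and 13 at 2000 UMIs. Without shared barcodes 47 of the 59 were called, and the calls of Aif1 and Ccl21a were lost. There 9 of 26 antiviral, 5 of 10 class I and 3 of 8 immediate early and heat shock genes tested were higher. Direction turned for Car3 without the contaminant filter (0.75) and, at 2000 UMIs, for Ccl21a (-0.00941), Fcer2a (0.35) and Madcam1 (0.0051). Few UMIs limit Cxcl11 and the FDC gate.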
